A study of Mus musculus with 15 samples.

Results

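The genes of the proteasome were examined in bulk RNA of dystrophic mouse muscle and heart, with the constitutive catalytic subunits set against their immunoproteasome counterparts. The set held every protein-coding gene whose mouse symbol began with Psm, followed by a letter from a to g and a digit. This rule found 51 genes of the 56980 in the expression table, of which 21631 were protein-coding. Of the 51 genes, 49 encode subunits, activators, an inhibitor or assembly chaperones of the proteasome. The other 2, Psmc3ip and Psme3ip1, matched by symbol alone and encode interacting proteins that are not subunits.

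All 15 mice were DBA/2J-mdx, a strain that lacks dystrophin, and received, 2 times per week, either vehicle or dasatinib with quercetin (D + Q), drugs given together to remove senescent cells. Tibialis anterior (TA) muscles came from mice that started treatment at 3 months of age and were collected at 5 months, after 2 months of treatment (4 vehicle-treated, 4 D + Q–treated). Hearts came from mice that started at 12 months and were collected at 16 months, after 4 months of treatment (4 vehicle-treated, 3 D + Q–treated). No wild-type group was analysed here, so every group shared the dystrophin defect. The 4 D + Q–treated TA mice were labelled male, whereas the vehicle-treated TA mice were 2 males (replicates 1 and 3) and 2 females (replicates 2 and 4). The vehicle-treated hearts came from 2 males (replicates 1 and 4) and 2 females (replicates 2 and 3), and the D + Q–treated hearts were labelled as 2 females and 1 male.

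The values were length-normalised transcript abundances (TPM), which account for transcript length and sum to 1000000 in every library. They keep no sequencing depth, so counting error is unknown, and all errors below are the spread between mice. TA and heart carried the RNA of their labelled tissue: 7 skeletal muscle markers summed to 42847 to 56510.2 TPM in TA and 1330.0 to 1783 TPM in hearts, whereas 6 heart markers summed to 21709 to 28610.3 TPM in hearts and 18.4 to 64.5 TPM in TA. Heart D + Q replicate 3, labelled male, went against its label, with 47.2 TPM of the X-inactivation transcript Xist and at most 0.0279 TPM of 4 Y-linked genes. The hearts also differed in atrial content: 4 atrial markers, all detected in every heart, summed to 176 to 1305 TPM in vehicle-treated hearts and 5.64 to 9.54 TPM in D + Q–treated hearts. The part of atrial content in the heart results was not tested. By expression every D + Q–treated heart was female, whereas the vehicle-treated hearts were of both sexes. Sex was thus unbalanced between the treatments in heart, and some results are also given with sex read from expression. Most of the counts, ratios and leading log2 differences that rest on heart D + Q replicate 3 are also given without it. TA vehicle replicate 4 had the lowest value of the 8 TA mice for 32 of 49 tested members, beside 30.2% of all genes tested.

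The proteasome degrades proteins tagged with ubiquitin. Its barrel-shaped 20S core stacks outer rings of α subunits (Psma genes) on inner rings of β subunits (Psmb genes), and only Psmb5, Psmb6 and Psmb7 cut peptide bonds in the constitutive form. The 19S cap recognises and unfolds substrates with a ring of ATPases (Psmc genes) and a set of non-ATPase subunits (most Psmd genes). Interferon-γ and leukocyte identity induce Psmb8, Psmb9 and Psmb10, which take the places of Psmb5, Psmb6 and Psmb7 in newly built cores and shift the cleavage preference towards peptides that fit MHC class I molecules. The same stimulus raises Psme1 and Psme2, which form the PA28αβ activator that opens the core without ubiquitin. In skeletal muscle the ubiquitin–proteasome system carries out much of the breakdown of myofibrillar proteins during atrophy.

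On GRCm39, Psmb8 (ENSMUSG00000024338, chr17:34416690-34420428, plus strand) and Psmb9 (ENSMUSG00000096727, chr17:34400960-34406738, minus strand) lie close to each other within the major histocompatibility complex. Psmb10 (ENSMUSG00000031897) lies apart from them at chr8:106662362-106665077. Psme1 (chr14:55815190-55822034) and Psme2 (chr14:55824895-55829173) are neighbours, and Psmb5 (ENSMUSG00000022193, chr14:54850776-54855481) lies on the same chromosome. Promoter windows of 5 of these genes are shown because the comparison of constitutive with immunoproteasome subunits turns on them. Each runs from 130 bases before the RefSeq transcription start to 20 bases from it, on GRCm38.p6 and in the direction of transcription. Capitals mark matches, on either strand, to the interferon-γ-activated pattern TTCNNNGAA (GAS), the interferon-stimulated pattern GAAANNGAAA (ISRE) or the antioxidant response pattern TGACNNNGC (ARE).
Psmb5 (chr14:54617976-54618125, minus strand): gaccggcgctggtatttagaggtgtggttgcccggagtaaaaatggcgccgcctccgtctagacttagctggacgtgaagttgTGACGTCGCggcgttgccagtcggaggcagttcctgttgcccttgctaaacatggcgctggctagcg
Psmb8 (chr17:34198065-34198214, plus strand): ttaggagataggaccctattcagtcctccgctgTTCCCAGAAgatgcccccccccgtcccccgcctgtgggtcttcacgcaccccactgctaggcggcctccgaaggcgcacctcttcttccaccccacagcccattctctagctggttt
Psmb6 (chr11:70525227-70525376, plus strand): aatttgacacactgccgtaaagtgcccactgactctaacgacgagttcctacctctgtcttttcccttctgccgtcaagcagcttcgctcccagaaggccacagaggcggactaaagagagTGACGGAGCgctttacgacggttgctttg
Psmb9 (chr17:34187311-34187460, minus strand): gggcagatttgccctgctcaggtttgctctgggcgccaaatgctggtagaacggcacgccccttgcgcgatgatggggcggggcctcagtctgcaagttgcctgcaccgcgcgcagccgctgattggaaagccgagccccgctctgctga
Psme1 (chr14:55578364-55578513, plus strand): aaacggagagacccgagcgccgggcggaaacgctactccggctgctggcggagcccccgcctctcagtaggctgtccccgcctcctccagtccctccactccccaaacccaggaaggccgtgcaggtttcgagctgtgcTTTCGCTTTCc
The constitutive genes Psmb5 and Psmb6 each held an ARE match, at positions -47 to -39 and -9 to -1 from the start, while Psmb7 had no promoter in the set used. Psmb8 held a GAS match at -97 to -89, Psme1 an ISRE match on the opposite strand at 10 to 19 bases into the transcript, and Psmb9 none of the 3 patterns. The promoter of Psmb10, which is not shown, also held none of them. Over windows of 250 bases before to 50 after the start, RefSeq gave 47 promoters for 43 of the 51 genes. GAS occurred in 3 of the 47 (6.38%, against 8.3% of 32851 promoters of all genes), ISRE in 5 (10.6% against 3.44%) and ARE in 6 (12.8% against 12.4%). The 5 genes with an ISRE match were Psmb3, Psmd4, Psmd9, Psme1 and Psmg4, which include no immunoproteasome subunit. Matches of different patterns never overlapped. A match describes letters in a window, not a bound site.

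The members together made up 0.239% ± 0.0189 (SD, n = 4) of TPM in vehicle-treated TA and 0.171% ± 0.00308 (SD, n = 4) in vehicle-treated hearts. In D + Q–treated mice the shares were 0.249% ± 0.0107 (SD, n = 4) and 0.184% ± 0.00644 (SD, n = 3). The 10 most abundant genes took 37.0 to 43.3% of TPM in vehicle-treated TA and 50.1 to 50.7% in vehicle-treated hearts. With D + Q they took 36.2 to 42.1% and 45.4 to 47.3%. The part of this composition in the tissue difference in shares was not tested. Levels of genes of the same ring differed although each fully assembled core holds its subunits in equal numbers. In vehicle-treated TA, the mean level over the α ring without the testis form Psma8 ran from 20.4 TPM for Psma5 to 169 TPM for Psma3, and over the 6 ATPases from 41.6 TPM for Psmc2 to 109.7 TPM for Psmc3. Psma3 was the most abundant member in all 8 TA mice (159 to 194 TPM). In all 7 hearts that place belonged to Psme1, the α subunit of PA28, at 161 to 185 TPM, whereas Psme1 ranked between 9 and 21 among the members in TA.

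The constitutive catalytic subunits were the more abundant forms in every mouse, and their mean levels were higher in TA than in heart. Psmb5, the chymotrypsin-like subunit, measured 49.2, 47.9, 43.8 and 24.4 TPM in vehicle-treated TA, 41.1, 45.4, 47.4 and 52.5 TPM in D + Q–treated TA, 25.2, 28.8, 27.5 and 33.2 TPM in vehicle-treated hearts, and 32.6, 36.1 and 31.2 TPM in D + Q–treated hearts. All TA samples lay above all hearts except vehicle replicate 4, which lay below them. Psmb6, the caspase-like subunit, measured 126, 116, 117 and 84.5 TPM in vehicle-treated TA, 107, 113, 119 and 127 TPM in D + Q–treated TA, 68.0, 70.4, 79.2 and 77.3 TPM in vehicle-treated hearts, and 80.1, 88.5 and 84.2 TPM in D + Q–treated hearts. All TA samples except vehicle replicate 4 lay above all hearts, and the D + Q–treated hearts lay above the vehicle-treated ones. Psmb7, the trypsin-like subunit, measured 139, 126, 129.7 and 99.0 TPM in vehicle-treated TA, 119.7, 129.9, 136 and 134 TPM in D + Q–treated TA, 58.6, 54.5, 61.6 and 55.9 TPM in vehicle-treated hearts, and 71.7, 67.9 and 64.1 TPM in D + Q–treated hearts. Tissues did not overlap for Psmb7, and D + Q–treated hearts again lay above vehicle-treated hearts. Psmb7 was above Psmb6 in all 8 TA mice and below it in all 7 hearts.

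The immunoproteasome subunits were lower in level and had their higher values in heart. Psmb8, which replaces Psmb5, measured 6.85, 8.78, 6.95 and 4.97 TPM in vehicle-treated TA, 11.9, 6.44, 5.22 and 8.53 TPM in D + Q–treated TA, 10.03, 13.2, 9.27 and 11.2 TPM in vehicle-treated hearts, and 9.97, 12.5 and 8.90 TPM in D + Q–treated hearts. Within vehicle the tissues did not overlap, whereas D + Q–treated TA replicate 1 lay inside the range of the D + Q–treated hearts. Psmb9, which replaces Psmb6, measured 1.76, 3.90, 1.11 and 1.82 TPM in vehicle-treated TA, 1.65, 1.18, 0.772 and 1.20 TPM in D + Q–treated TA, 3.46, 3.66, 2.46 and 4.35 TPM in vehicle-treated hearts, and 3.23, 3.81 and 2.61 TPM in D + Q–treated hearts. The vehicle-treated TA sample at 3.90 TPM, from a female, lay inside the range of the hearts, and the other 7 TA samples lay below them. Psmb10, which replaces Psmb7, measured 11.02, 6.51, 8.42 and 6.29 TPM in vehicle-treated TA, 10.2, 5.9997, 7.37 and 11.4 TPM in D + Q–treated TA, 22.3, 23.3, 22.3 and 25.6 TPM in vehicle-treated hearts, and 20.1, 22.9 and 20.2 TPM in D + Q–treated hearts. No TA sample reached any heart for Psmb10, and the treatment groups overlapped in both tissues.

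**Figure D1:**
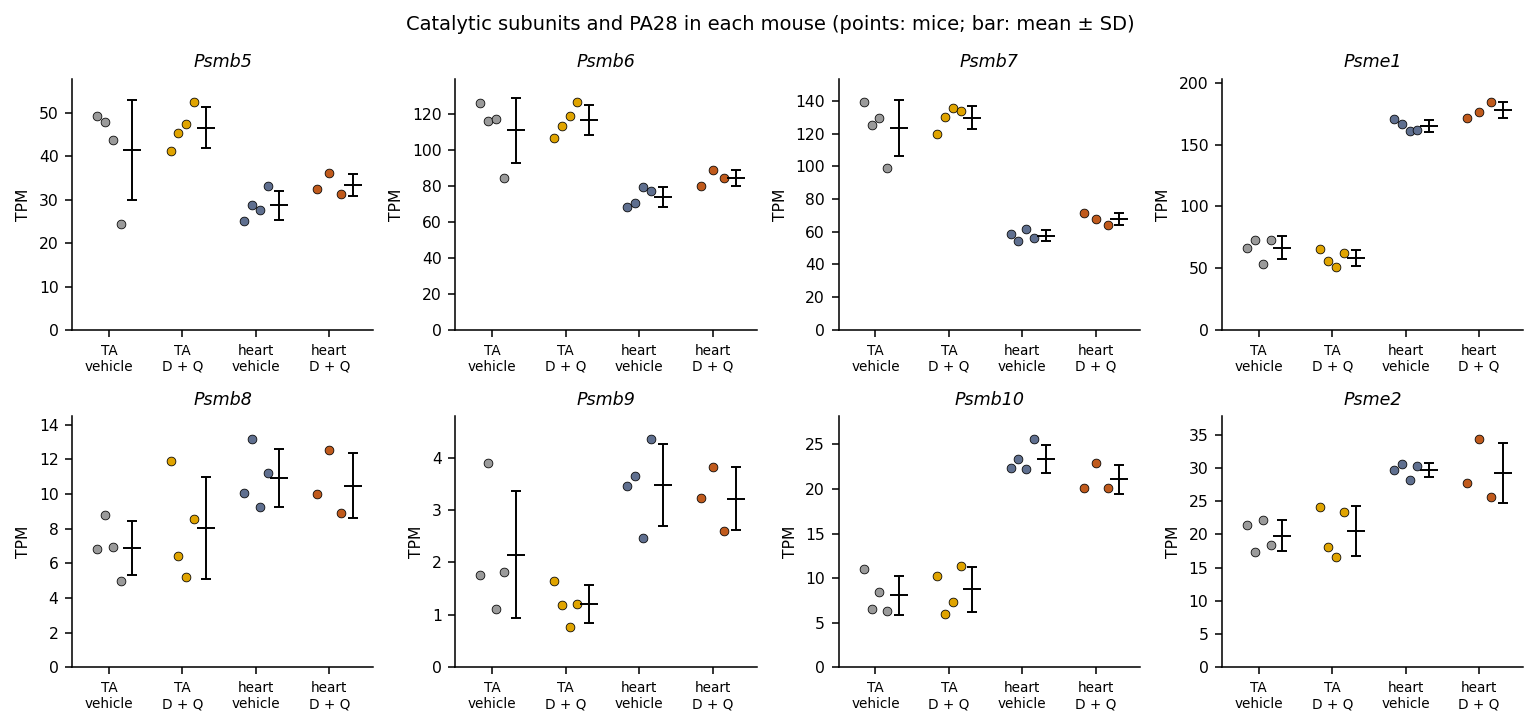
TPM (vertical axis) of the constitutive catalytic subunits Psmb5, Psmb6 and Psmb7 with Psme1 (upper row) and of the immunoproteasome subunits Psmb8, Psmb9 and Psmb10 with Psme2 (lower row) in the 4 groups (horizontal axis). Points are mice and bars are the mean ± SD. Psmb10 and Psme1 sit higher in all 7 hearts than in all 8 TA samples, and Psmb7 sits lower in all hearts.

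As a share of the summed TPM of the 6 catalytic subunits, the immunosubunits made up 5.88, 6.21, 5.37 and 5.92% in vehicle-treated TA and 8.15, 4.51, 4.24 and 6.32% in D + Q–treated TA. In hearts they made up 19.1, 20.7, 16.8 and 19.8% with vehicle and 15.3, 16.9 and 14.99% with D + Q. Every heart was above every TA sample, and 2 of the 3 D + Q–treated hearts (replicates 1 and 3) lay below all vehicle-treated hearts. The spread was wider in D + Q–treated TA (SD 1.82, mean 5.81%) than in vehicle-treated TA (SD 0.351, mean 5.85%), and this difference in spread was not tested. The summed TPM of 15 leukocyte markers was 269.9 to 482 in vehicle-treated TA, 341 to 682 in D + Q–treated TA, 143 to 244 in vehicle-treated hearts and 115 to 190.2 in D + Q–treated hearts. Most of that sum was the macrophage and neutrophil gene Lyz2, the T cell gene Cd8a was listed at 0 in all 4 D + Q–treated TA samples, and 14 of the 15 markers were above 0 in every mouse of each of the other 3 groups. The part of leukocytes in the immunosubunit values was not tested. In bulk RNA, fewer cells of a type and less RNA per cell cannot be told apart.

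**Figure D2:**
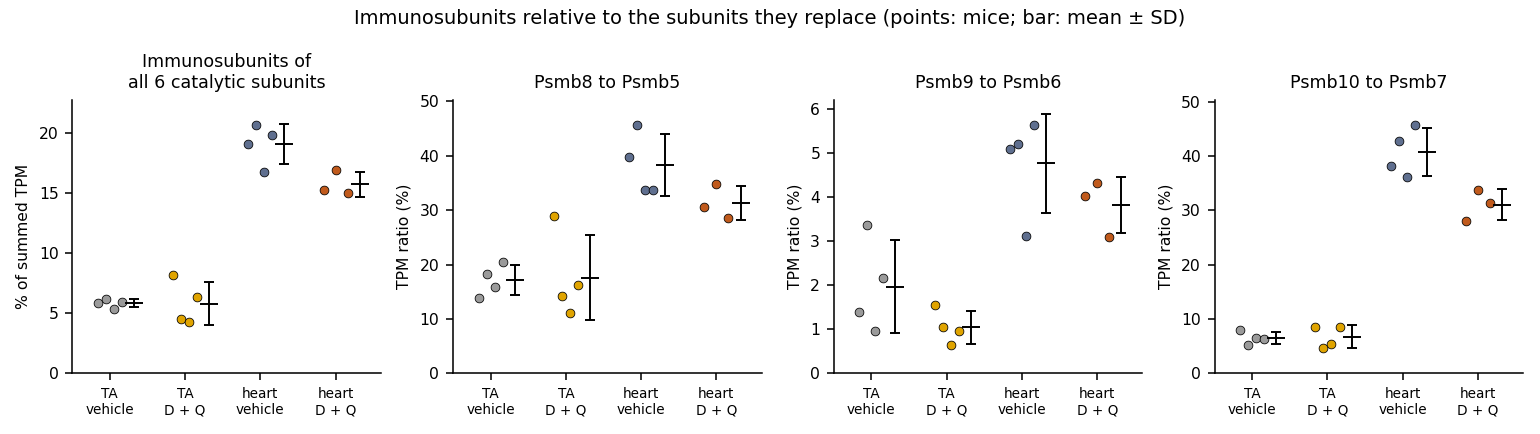
Immunosubunits as a percentage of the summed TPM of the 6 catalytic subunits (first panel), and TPM of each immunosubunit as a percentage of the TPM of the constitutive subunit it replaces (other 3 panels), in the 4 groups. Points are mice and bars are the mean ± SD. Psmb10 as a percentage of Psmb7 is 28.1 to 33.7 in D + Q–treated hearts, below the 36.2 to 45.8 of vehicle-treated hearts.

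Each immunosubunit was next set against its constitutive partner within the same library, a ratio that does not depend on how libraries are scaled. The exact two-sided permutation test used here cannot give a p below 0.0286 for 4 against 4 or 3 against 4 mice, and p-values were adjusted over the 12 tests. The Psmb10 to Psmb7 ratio was 6.48% ± 1.11 (SD, n = 4) in vehicle-treated TA and 40.7% ± 4.38 (SD, n = 4) in vehicle-treated hearts, a log2 difference of -2.66 (exact permutation p = 0.0286, adjusted p = 0.0686, groups apart). With D + Q it was 6.77% ± 2.05 (SD, n = 4) in TA and 31.1% ± 2.85 (SD, n = 3) in hearts, a log2 difference of -2.25 with the same p-values. Between treatments the ratio was lower in every D + Q–treated heart than in every vehicle-treated heart (log2 difference -0.39, exact permutation p = 0.0286, adjusted p = 0.0686), while in TA the log2 difference was 0.03 (exact permutation p = 0.971). The Psmb8 to Psmb5 ratio was 17.1% ± 2.82 (SD, n = 4) in vehicle-treated TA and 38.2% ± 5.74 (SD, n = 4) in vehicle-treated hearts (log2 difference -1.16, exact permutation p = 0.0286, adjusted p = 0.0686). The Psmb9 to Psmb6 ratio was the lowest of the 3, at 1.97% ± 1.05 (SD, n = 4) in vehicle-treated TA and 4.75% ± 1.12 (SD, n = 4) in vehicle-treated hearts (log2 difference -1.40, exact permutation p = 0.0571, adjusted p = 0.114). For these pairs the D + Q log2 differences were -0.04 and -0.82 in TA and -0.28 and -0.30 in heart, with exact permutation p between 0.171 and 0.943. Between the tissues of D + Q–treated mice, Psmb8 to Psmb5 differed by a log2 value of -0.92 (exact permutation p = 0.0857, adjusted p = 0.147, groups overlapping) and Psmb9 to Psmb6 by -1.92 (exact permutation p = 0.0286, adjusted p = 0.0686, groups apart). Without heart D + Q replicate 3, the tissue log2 differences with D + Q were -2.24 for Psmb10 to Psmb7, -0.99 for Psmb8 to Psmb5 and -2.06 for Psmb9 to Psmb6, all with the groups apart. The treatment log2 differences in heart were then -0.40, -0.22 and -0.15 in the same order, with the groups apart for Psmb10 to Psmb7 alone, and the smallest p that 2 against 4 mice allow is 0.0667. No ratio test passed an adjusted p of 0.05 in this small design. Ratios at the smallest possible p of 0.0286 had an adjusted p of 0.0686, so passing depended on how many of the 12 tests sat there. This outcome was largely set by the design and does not speak to any single ratio.

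The TA and heart libraries were compared within each treatment by limma on log2(TPM + 0.5), over the 17868 genes that reached 0.5 TPM in 3 or more of the 15 mice. A gene was called at an adjusted p under 0.05 and an absolute log2 difference above 0.5. Tissue, age and length of treatment differed together and cannot be told apart. In vehicle-treated mice 21 of 50 tested members were called higher in TA (22.5% of all genes tested) and 5 lower (14.2% of all genes). In D + Q–treated mice 19 were called higher (21.4% of all genes) and 8 lower (13.3% of all genes). The D + Q counts were 17 higher (15.4% of all genes) and 5 lower (9.86%) without heart D + Q replicate 3, with a member median of 0.27. With every mouse, the median log2 difference of the members was 0.43 with vehicle and 0.36 with D + Q, against 0.16 for all genes tested in both. The split depended on the scaling: after median-of-ratios scaling, which set the median of all genes to -0.01 in vehicle-treated mice, 10 members were called higher (16.1% of all genes) and 8 lower (18.6%), and in D + Q–treated mice 12 were higher (16.6%) and 9 lower (18.3%). Psmb11 was not tested, because it was listed at 0 in 14 of 15 mice. Psma8 passed the filter only through the hearts, so its difference was set by the filter.

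Most calls on the higher side were genes of the 19S cap. Of its 11 non-ATPase subunits, 10 were called higher in TA with vehicle and 9 with D + Q, and of the 6 ATPases 5 in each, with 0 lower, beside the 22.5% and 21.4% of all genes. After median-of-ratios scaling 6 non-ATPases were called higher with vehicle and 7 with D + Q, and 2 ATPases in each. The D + Q counts were 9 non-ATPases and 4 ATPases without heart D + Q replicate 3. Among the 8 α genes 2 were higher and 1 lower in both treatments, and of the 4 non-catalytic constitutive β genes 1 was higher with vehicle and 0 with D + Q. The vehicle and D + Q contrasts used different mice but the same estimate of spread. In both, 17 members were called higher (17.7% of all genes) and 4 lower (10.9% of all genes). The 4 were Psma8, Psmb10, Psme1 and Psme2. Every TA sample exceeded every heart within each treatment for 25 members (19.7% of all genes), and lay below for 5 (12.7% of all genes), the same 4 genes and the 20S assembly chaperone gene Psmg1. Leaving out Psma8, the numbers on the lower side were 3 called in both and 4 without overlap. When heart D + Q replicate 3 was left out, 15 members were called higher in both and the same 4 lower, or 3 lower without Psma8. The share of all genes called in both is not given for that setting. The D + Q contrast alone then called 15.4% of all genes higher and 9.86% lower.

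Psmd8, a non-ATPase lid subunit, had the largest excess in TA among the members. It measured 158, 108, 146 and 105 TPM in vehicle-treated TA, 144, 159, 164 and 138 TPM in D + Q–treated TA, 50.5, 52.1, 49.5 and 47.1 TPM in vehicle-treated hearts, and 50.9, 44.1 and 49.6 TPM in D + Q–treated hearts. The lower vehicle-treated TA values came from the 2 females, and no TA sample came near a heart. The log2 difference was 1.34 (SE 0.11, 1.19 above the median of all genes, adjusted p = 2.73e-07) with vehicle and 1.51 (SE 0.14, adjusted p = 9.36e-07) with D + Q. Psma3, an α subunit, measured 165, 183, 171 and 159 TPM in vehicle-treated TA and 166, 176, 167 and 194 TPM in D + Q–treated TA. In hearts it measured 86.4, 88.2, 79.2 and 77.8 TPM with vehicle and 91.9, 91.5 and 82.8 TPM with D + Q, so all TA samples lay above all hearts (log2 difference 1.03, 0.87 above the median of all genes, adjusted p = 1.25e-07 with vehicle). The ATPase gene Psmc5 measured 67.9, 69.6, 70.0 and 59.7 TPM in vehicle-treated TA and 36.6, 35.8, 35.5 and 34.1 TPM in vehicle-treated hearts (log2 difference 0.90, adjusted p = 3.94e-07). With D + Q it measured 63.4, 66.2, 67.5 and 73.5 TPM in TA and 39.5, 38.8 and 37.3 TPM in hearts (log2 difference 0.79, adjusted p = 1.49e-05), again without overlap. Psmd11, a lid subunit, measured 75.5, 71.7, 68.1 and 85.2 TPM in D + Q–treated TA and 40.2, 39.2 and 38.1 TPM in D + Q–treated hearts (log2 difference 0.93, adjusted p = 1.34e-05). The D + Q log2 differences of Psmd8, Psmc5 and Psmd11 without heart D + Q replicate 3 were 1.43, 0.74 and 0.89, all still called.

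Within the catalytic pairs the estimates were positive for the constitutive and negative for the immunoproteasome member, in both treatments. Psmb7 was higher in TA by 1.08 (SE 0.10, adjusted p = 6.80e-07) with vehicle and 0.89 (SE 0.12, adjusted p = 5.07e-05) with D + Q on the log2 scale. Psmb6 was called higher with vehicle (0.57, adjusted p = 0.00078), a call lost after median-of-ratios scaling (0.37), and stood at 0.40 (adjusted p = 0.032) with D + Q, under the minimum log2 difference. The log2 differences of Psmb5 were 0.47 (adjusted p = 0.0453) and 0.38 (adjusted p = 0.195), and it was called in neither treatment, though it was called with vehicle without TA vehicle replicate 4 (0.71). Psmb10 was lower in TA by a log2 difference of -1.51 (SE 0.18, -1.67 relative to the median of all genes, adjusted p = 1.26e-05) with vehicle and -1.40 (SE 0.23, adjusted p = 0.000217) with D + Q. Psmb8 was called lower with vehicle (-0.64, adjusted p = 0.0326) and not with D + Q (-0.36, adjusted p = 0.336). The Psmb8 call in vehicle was lost with no filter on low TPM (-0.64), and without TA vehicle replicate 1, 3 or 4, or without heart vehicle replicate 1, 2 or 4 (log2 difference -0.67 to -0.47). Psmb9 was not called with vehicle (-0.67, adjusted p = 0.0523) and was called with D + Q (-0.97, adjusted p = 0.0276), a call lost without heart D + Q replicate 3 (-1.05, adjusted p = 0.0947). The Psmb9 call was also lost with no filter (-0.97), with sex read from expression (-0.93), without TA D + Q replicate 3 (-0.84) and without heart D + Q replicate 2 (-0.91). With vehicle, Psmb9 became a call with a minimum of 1 TPM, with a replicate block and without TA D + Q replicate 1 or 3 (-0.67 in each), without TA vehicle replicate 2 (-0.94) and without heart vehicle replicate 3 (-0.87). In the absence of heart D + Q replicate 3 the other D + Q estimates were 0.76 for Psmb7 and -1.60 for Psmb10, both called, and 0.19 for Psmb5, 0.34 for Psmb6 and -0.52 for Psmb8, not called. After median-of-ratios scaling, all 3 immunosubunits were called lower in vehicle-treated TA.

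Both genes of the PA28αβ activator were lower in TA than in heart. Psme1 measured 66.7, 73.0, 53.2 and 73.1 TPM in vehicle-treated TA, 65.2, 56.0, 50.8 and 62.5 TPM in D + Q–treated TA, 171, 167, 161 and 162 TPM in vehicle-treated hearts, and 172, 177 and 185 TPM in D + Q–treated hearts. The tissues were far apart, and the log2 difference was -1.32 (SE 0.10, -1.48 relative to the median of all genes, adjusted p = 1.58e-07) with vehicle and -1.55 (SE 0.13, adjusted p = 3.49e-07) with D + Q. Psme2, the β subunit of PA28, measured 21.4, 17.4, 22.1 and 18.4 TPM in vehicle-treated TA, 24.1, 18.1, 16.6 and 23.3 TPM in D + Q–treated TA, 29.7, 30.5, 28.1 and 30.2 TPM in vehicle-treated hearts, and 27.8, 34.3 and 25.7 TPM in D + Q–treated hearts. Its TA values also lay below all hearts, by a smaller log2 difference of -0.58 (adjusted p = 0.0031) with vehicle and -0.54 (adjusted p = 0.0182) with D + Q. The Psme2 call with D + Q was lost without TA D + Q replicate 2 (-0.49) or 3 (-0.45) or heart D + Q replicate 2 (-0.44), so its place among the 4 members lower in both treatments rests on these mice. The D + Q estimates without heart D + Q replicate 3 were -1.44 for Psme1 and -0.75 for Psme2, both called. The mean ratio of Psme1 to Psme2 TPM was 3.42 in vehicle-treated TA and 5.58 in vehicle-treated hearts. Psme2 may share reads with Psme2b, a gene on chromosome 11 named as its copy (0.684 to 2.81 TPM over all mice). How reads were divided between them was not measured here, so the values of both are uncertain. The same holds for Psma5, Psmb5, Psmb6 and Psmb7, which have processed pseudogenes in the table. Psme4, the gene of the PA200 activator, went the other way, at 0.49 (adjusted p = 0.00177) with vehicle and 0.51 (adjusted p = 0.00615) with D + Q, where it was called higher. This call was lost after median-of-ratios scaling, where 0 activator genes were called higher in either treatment.

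Psma8, the α subunit of testis proteasomes, was low everywhere and higher in hearts. It measured 0.109, 0.0988, 0.145 and 0.136 TPM in vehicle-treated TA, 0.280, 0.143, 0.0777 and 0.0438 TPM in D + Q–treated TA, 0.504, 0.703, 0.744 and 0.540 TPM in vehicle-treated hearts, and 0.672, 0.722 and 0.520 TPM in D + Q–treated hearts. All TA values were under the 0.5 TPM minimum and all hearts above it, so its presence among the tested genes already implied a difference (log2 difference -0.85 with vehicle and -0.75 with D + Q on the log2(TPM + 0.5) scale).

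**Figure D3:**
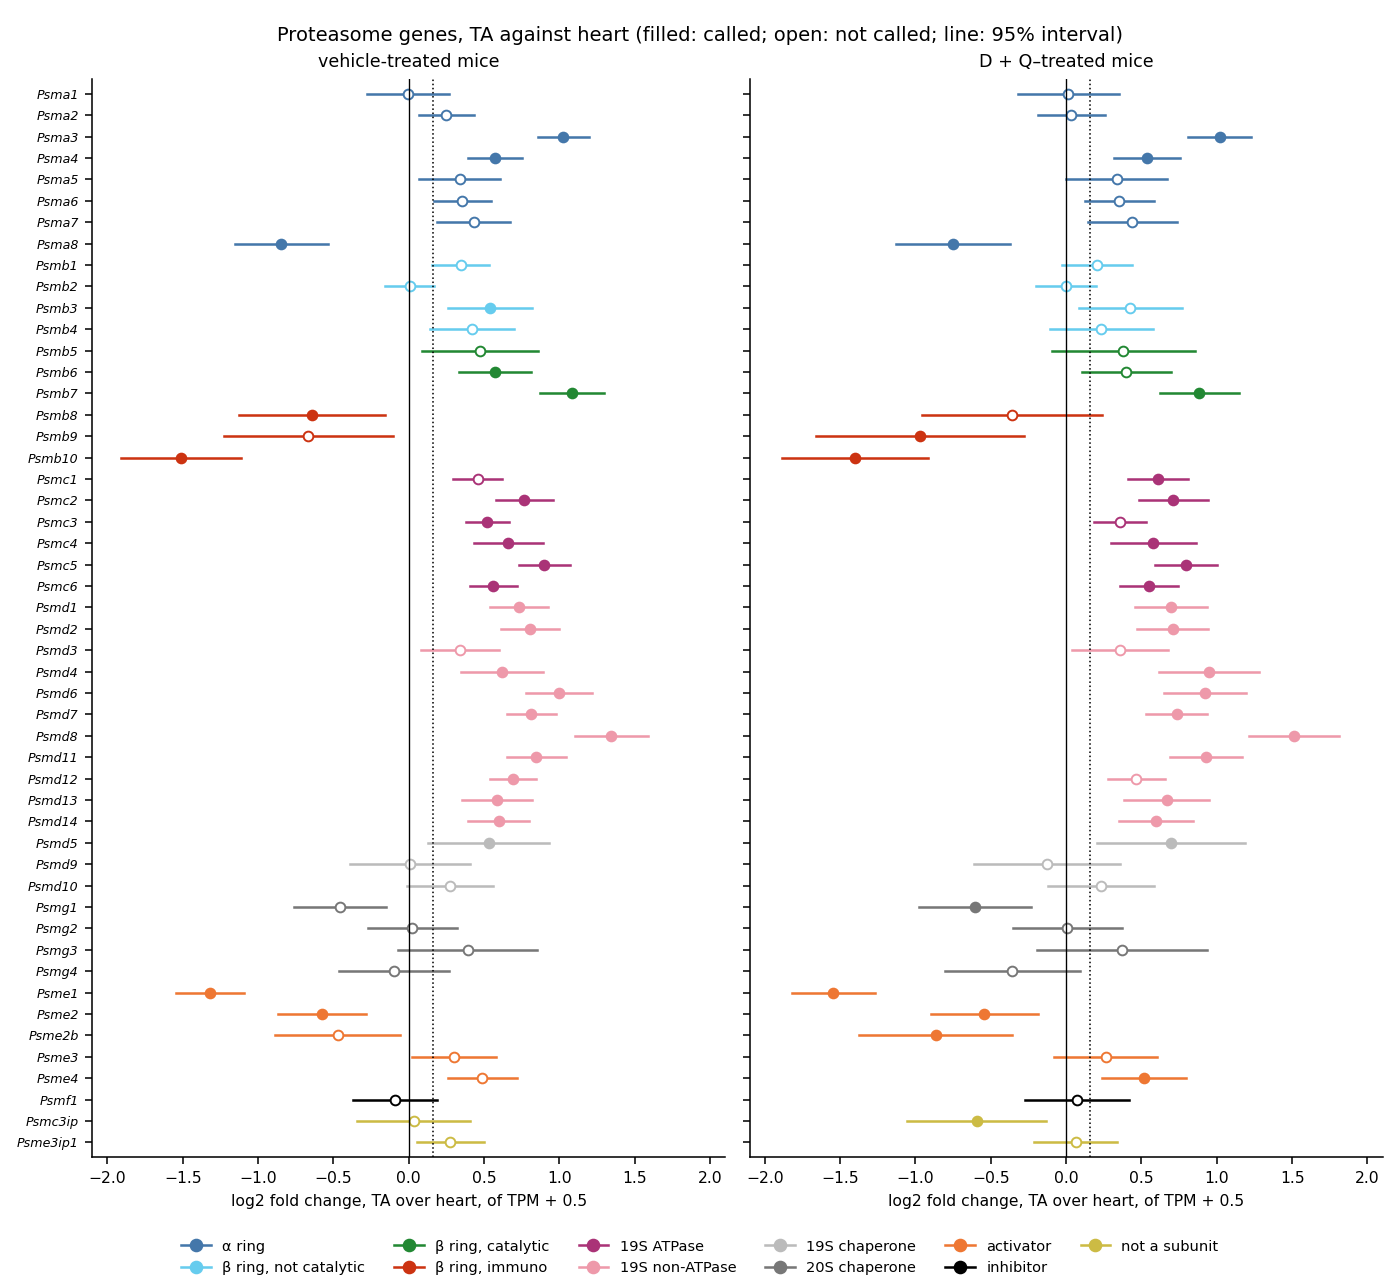
Log2 difference between TA and heart (horizontal axis, positive means higher in TA) for the 50 tested members (rows, grouped by role) in vehicle-treated (left) and D + Q–treated mice (right). Points are limma estimates with 95% intervals, filled where called, and the dotted line is the median of all genes at 0.16. The ATPase and non-ATPase genes of the 19S cap lie to the right of 0, and Psmb8, Psmb9, Psmb10, Psme1 and Psme2 lie to the left.

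Of 15 partner genes outside the symbol rule, such as the assembly factor Pomp, the ubiquitin receptor Adrm1 and the transcription factor Nfe2l1, 14 were found by name and tested. In vehicle-treated mice 10 of these were called higher in TA (22.5% of all genes) and 0 lower (14.2% of all genes). The log2 differences of the 14 ran from -0.29 for the lid component Sem1 to 1.62 for Txnl1, with a median of 0.71. In D + Q–treated mice 7 were called higher (21.4% of all genes) and 1 lower (13.3% of all genes), with a median of 0.52. Of 11 interferon and class I genes, 1 was called higher (Irf8, 0.80) and 1 lower (Tap2, -0.80) in vehicle-treated TA, with a median of -0.27. The shares of all genes beside these were again 22.5% higher and 14.2% lower. Of the 15 leukocyte markers 9 were tested, of which 6 were called higher (up to 1.70 for Cd68) and 3 lower (down to -1.45 for Cd3e), beside the same shares. The 3 lower genes, Cd3e, Cd3g and Cd79a, were under the 0.5 TPM minimum in every TA sample. They passed the filter only through the hearts, so their differences were set by the filter.

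In TA, no member passed the test between D + Q and vehicle. Over 16298 genes tested with 1 surrogate variable as covariate, limma called 0 genes (0% of all genes tested), and 0 of 49 tested members. The authors, with DESeq2 on counts, reported up- and downregulated genes in this comparison. The absence of calls here therefore does not show that D + Q left the members unchanged. No member had an unadjusted p under 0.05, against 2.99% of all genes. No member had all D + Q values above (0.264% of all genes) or all below (1.25% of all genes) the vehicle values. The log2 differences were small: 34 members were positive and 15 negative, with a median of 0.04 against -0.07 for all genes. The constitutive core and 19S genes had 28 positive values of 31, with a median of 0.06. This count of signs depended on the covariate and on single mice. With labelled sex in its place 18 members were positive and 31 negative. Without TA vehicle replicate 4 the split was 17 to 32, and without TA D + Q replicate 3 it was 16 to 33. After median-of-ratios scaling 40 were positive and 9 negative with a median of 0.12, and Psma7 and Psmd4 (0.24 each) were higher at an unadjusted p under 0.05 (1.59% of all genes), with 0 called.

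The smallest p-value of the members belonged to Psmb9, which had a log2 difference of -0.59 (95% interval -1.29 to 0.12, adjusted p = 0.999 by limma), with the vehicle range of 1.11 to 3.90 TPM overlapping the D + Q range of 0.772 to 1.65 TPM. Psme2b, whose reads may be divided with Psme2, followed at 1.50, 2.30, 1.24 and 1.00 TPM with vehicle and 1.19, 0.684, 1.02 and 1.17 TPM with D + Q (-0.42, adjusted p = 0.999 by limma). Psme1 stood at -0.19 (adjusted p = 0.999 by limma). By p-value the positive side was led by Psmd8 (0.24, adjusted p = 0.999 by limma), whose 4 D + Q values of 138 to 164 TPM lay inside the vehicle range of 105 to 158 TPM or just above it. The D + Q–treated TA mice were all male, and the lower vehicle values of Psmd8 came from the females. The vehicle-treated males, at 158 and 146 TPM, lay inside the D + Q range. Psma7, an α subunit, measured 85.6, 79.3, 73.3 and 61.4 TPM with vehicle and 85.6, 81.2, 83.9 and 88.0 TPM with D + Q (0.17, adjusted p = 0.999 by limma). The ubiquitin receptor gene Psmd4 measured 79.9, 85.8, 70.5 and 74.9 TPM with vehicle and 75.2, 102, 77.2 and 88.0 TPM with D + Q (0.16, adjusted p = 0.999 by limma). The treatment groups overlapped for all of these genes. Psmb8 and Psmb10 had log2 differences of 0.01 and -0.00, and D + Q replicate 1 was the highest TA sample for Psmb8. That mouse also had the highest summed TPM of the 11 interferon and class I genes in TA (729, against 375 to 649.8 in the other 7). The 14 partner genes ranged from -0.19 for Akirin2 to 0.17 for Nfe2l1, with 9 positive and 0 called.

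In heart, no member passed the adjusted threshold either. limma with labelled sex as covariate called 51 of 16132 genes (0.316% of all genes tested) and 0 of 50 tested members. The authors, with DESeq2 on counts, reported more changed genes in heart than were called here. As in TA, the absence of calls does not show that D + Q left the members unchanged. At an unadjusted p under 0.05, 11 members were higher with D + Q (9.65% of all genes) and 0 lower (7.99% of all genes). For 13 members every D + Q–treated heart was above every vehicle-treated heart (9.63% of all genes), and for 0 below (5.57% of all genes). The median log2 difference of the members was 0.09, against -0.00 for all genes, with 39 positive and 11 negative. The split was 36 to 14 without heart D + Q replicate 3 and 32 to 18 with sex read from expression. All 7 constitutive β genes and all 6 ATPases had positive estimates, whereas the 3 immunosubunits lay between -0.15 and -0.08. The lowest ATPase, Psmc1, stood at only 0.0007. After median-of-ratios scaling, and also with sex read from expression, 5 ATPases were positive and 1 negative, while the constitutive β genes all stayed positive. Without heart D + Q replicate 3 the immunosubunits stood at 0.02 for Psmb8, 0.19 for Psmb9 and -0.08 for Psmb10, and Psmb9 stood at 0.0705 with sex read from expression. With sex read from expression, 3 members had an unadjusted p under 0.05 (4.98% of all genes were higher at that level), namely Psmb7, Psmc3ip and Psmd12. Without heart D + Q replicate 3, 7 members were higher at that level (5.84% of all genes) and 1 lower (Psmd5), and 22 members had the D + Q–treated hearts above all vehicle-treated hearts (17.7% of all genes).

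Psmc3ip, a recombination factor gene that is not a subunit, had the largest member difference in heart. It measured 0.714, 0.811, 0.871 and 0.827 TPM with vehicle and 1.39, 1.82 and 1.37 TPM with D + Q, without overlap (log2 difference 0.61, SE 0.142, adjusted p = 0.112 by limma). The lid subunit gene Psmd12 measured 41.2, 39.4, 41.1 and 38.2 TPM with vehicle and 47.2, 46.9 and 46.0 TPM with D + Q, again without overlap (0.22, SE 0.055, adjusted p = 0.126 by limma). Psmb7 was next (0.23, SE 0.065, adjusted p = 0.153 by limma), with its D + Q values of 64.1 to 71.7 TPM above its vehicle values of 54.5 to 61.6 TPM. The other members at an unadjusted p under 0.05 were Psma2, Psmb1, Psmb4, Psmb6, Psmc3, Psmd6, Psmd7 and the assembly chaperone gene Psmg4, with log2 differences from 0.13 to 0.28. With heart D + Q replicate 3 left out, the differences were 0.65 for Psmc3ip, 0.22 for Psmd12 and 0.27 for Psmb7. On the negative side, Psmb10 had the smallest p-value, at -0.15 (95% interval -0.34 to 0.05, adjusted p = 0.405 by limma). Psmd5, a chaperone of 19S base assembly, measured 4.06, 6.44, 4.58 and 4.68 TPM with vehicle and 3.67, 3.63 and 4.77 TPM with D + Q (-0.26, adjusted p = 0.477 by limma). Psmd4 measured 47.6, 55.9, 44.4 and 54.6 TPM with vehicle and 43.7, 55.9 and 39.5 TPM with D + Q (-0.15, adjusted p = 0.594 by limma). These negative estimates came with overlapping groups, and without heart D + Q replicate 3 they were -0.08 for Psmb10, -0.52 for Psmd5 and -0.01 for Psmd4.

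The lower Psmb10 to Psmb7 ratio of the D + Q–treated hearts combined a higher Psmb7 and an overlapping Psmb10. Summed over Psmb5, Psmb6 and Psmb7, the constitutive catalytic level was 152 to 168 TPM in vehicle-treated and 179.6 to 193 TPM in D + Q–treated hearts, without overlap, while the immunosubunit sums of 34.0 to 41.2 and 31.7 to 39.3 TPM overlapped. Replicate 3 was the lowest of the D + Q–treated hearts for both sums, and the other 2 had constitutive sums of 184 and 193 TPM. Composition of the libraries moved with treatment as well: the 10 most abundant genes took 50.1 to 50.7% of TPM in vehicle-treated and 45.4 to 47.3% in D + Q–treated hearts. After median-of-ratios scaling 37 members were positive and 13 negative, with a median of 0.08 against -0.005 for all genes. At an unadjusted p under 0.05, 8 members were then higher (8.96% of all genes) and 0 lower. The part of this composition in the member values was not tested beyond that rescaling. The 14 partner genes showed 12 positive estimates, from -0.12 for Nfe2l1 to 0.27 for the deubiquitinase gene Uchl5, and 0 were called. The 11 interferon and class I genes had a median of -0.06, and the 9 tested leukocyte markers a median of -0.28, with 0 called in either list.

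**Figure D4:**
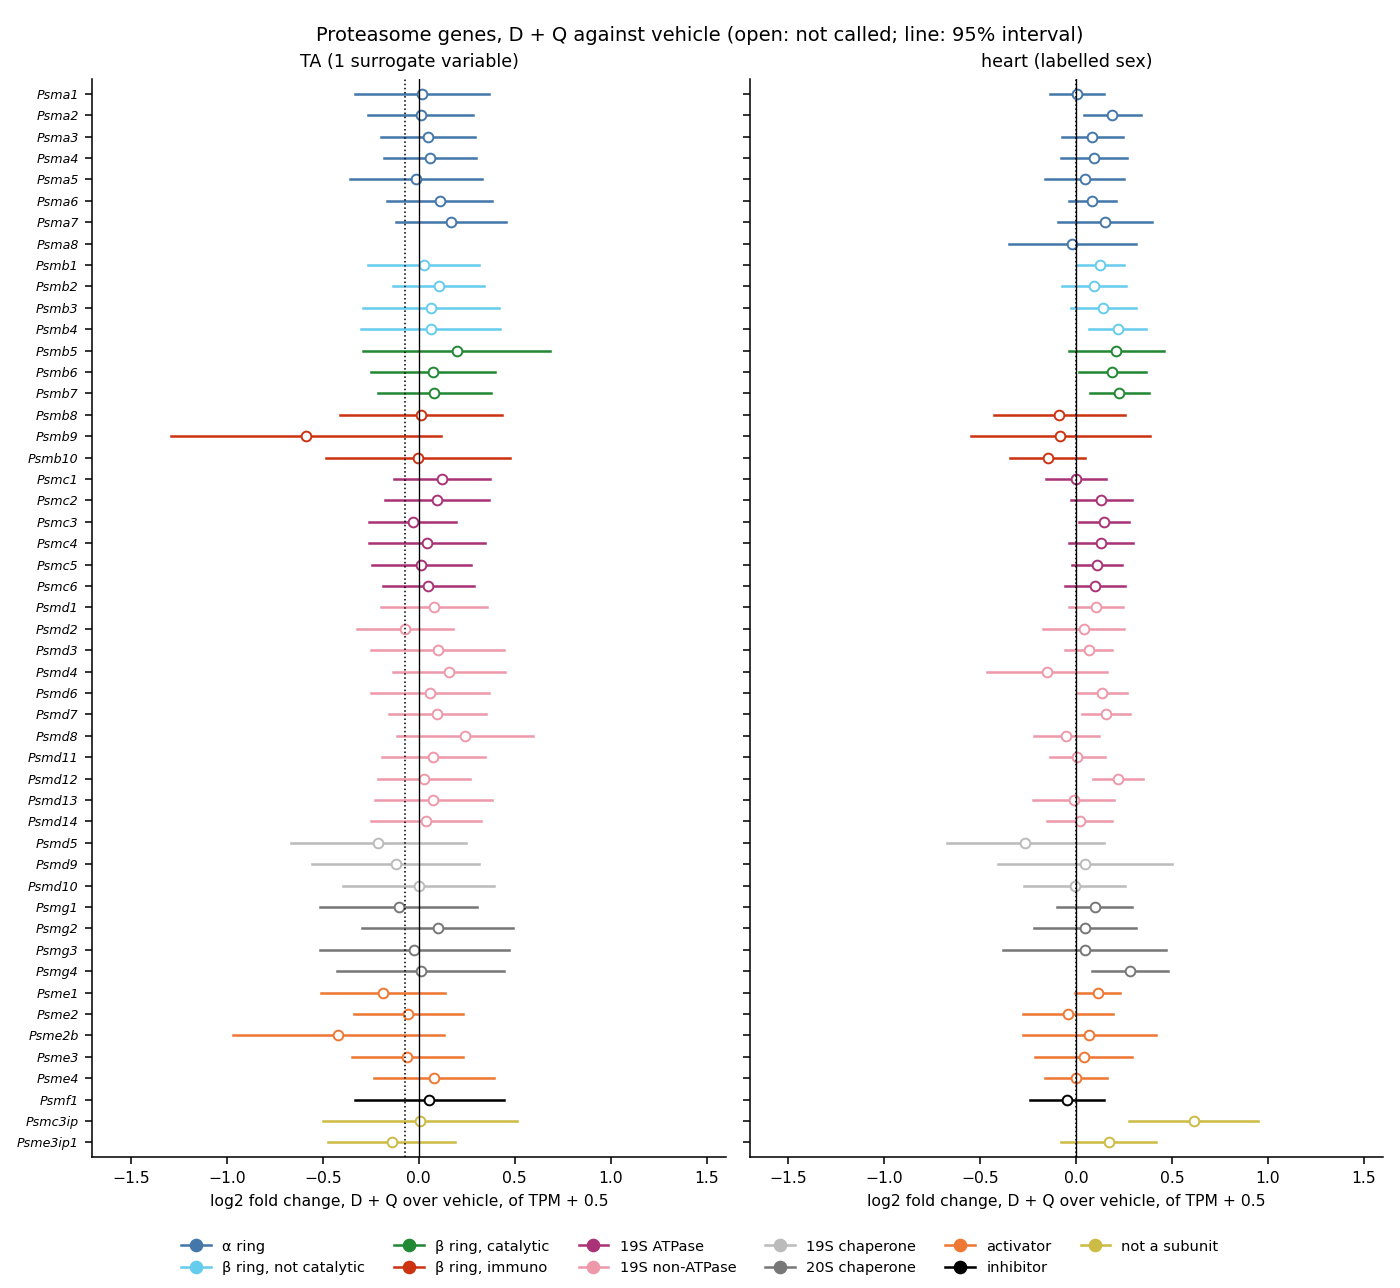
Log2 difference between D + Q and vehicle (horizontal axis, positive means higher with D + Q) for the tested members (rows, grouped by role) in TA (left, 49 members) and heart (right, 50 members). Points are limma estimates with 95% intervals, all open because 0 members were called, the dotted lines are the medians of all genes (-0.07 in TA), and Psmb7, Psmd12 and Psmc3ip lie to the right of 0 in heart.

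Whether D + Q acted differently in the tissues was tested as an interaction over the 15 mice. It was called for 11 of 17868 genes (0.0616% of all genes tested) and 0 members. Psmc3ip alone had an unadjusted p under 0.05 (4.22% of all genes), with a difference between effects of -0.63 on the log2 scale (SE 0.276, adjusted p = 1 by limma). Without heart D + Q replicate 3 this was -0.67, and 0 members had an unadjusted p under 0.05. It measured 0.815, 1.13, 0.803 and 0.636 TPM in vehicle-treated TA and 0.691, 0.702, 1.29 and 0.564 TPM in D + Q–treated TA, where the groups overlapped. Psmd12 (-0.23, 95% interval -0.47 to 0.02) and the α subunit gene Psma2 (-0.22, 95% interval -0.50 to 0.07) had the next smallest p-values on the negative side. Psmd4 (0.33, 95% interval -0.10 to 0.76), Psmc1 (0.15, 95% interval -0.11 to 0.41) and Psmd8 (0.17, 95% interval -0.21 to 0.55) had the smallest p-values on the positive side. For the immunosubunits the differences between effects were 0.28 for Psmb8, -0.31 for Psmb9 and 0.11 for Psmb10, with 95% intervals that spanned 0. They were 0.13, -0.38 and -0.09 without heart D + Q replicate 3. Such intervals do not show that the tissues responded alike.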

How the data were processed

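Gene-level TPM values of 15 libraries were used as deposited by the authors, whose processing used Trim Galore (v0.6.10), Salmon (v1.10.3) and GRCm39. The annotation release is not given in the sources used here. Symbols and biotypes were taken from GENCODE M39 (56236 of 56980 identifiers found). Members, lists and tests were chosen with earlier results of these data known. TPM were tested as log2(TPM + 0.5) with limma (v3.58.1, R 4.3.3, trend), since counts, and thus the authors' DESeq2 design, were not used here. Genes that reached 0.5 TPM in 3 or more mice of the fit were kept, p-values were adjusted by Benjamini-Hochberg over all genes tested, and calls required adjusted p under 0.05 and absolute log2 difference above 0.5. TA was fitted with 1 surrogate variable, computed here, heart with labelled sex, and tissue and interaction contrasts over all 15 libraries with labelled sex. P-values measure the spread between these mice. Values in every mouse were given for Psmb5 to Psmb10, Psme1, Psme2 and, per comparison, up to 3 members in each direction with the smallest p-values among those called, or among all tested where none was called. The fits were tested on simulated data. Promoters came from RefSeq (GRCm38.p6). Protein sequences were not used here.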

Additional observations from a re-analysis of the deposited data

Results flagged for a closer look

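Of 171 sets of 4 mice examined for a single distant value (the 51 members, 5 summed levels and the immunosubunit share in each of the 3 groups of 4 mice), 2 had one by Dixon's criterion, and chance alone flags about 1 set in 20. Psmg4, a 20S assembly chaperone gene, measured 6.60 TPM in TA vehicle replicate 4 and 9.96 to 10.2 TPM in the other 3 vehicle-treated TA mice. Psmb11, the catalytic subunit gene of the thymus proteasome, measured 0.00716 TPM in TA vehicle replicate 4 and was listed at 0 in the other 14 mice.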

How the results depend on the processing

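Under every alternative run (pseudocounts of 0.1 and 1, no filter or a minimum of 1 TPM, median-of-ratios scaling, no trend, no minimum fold, other covariates, a replicate block and each mouse left out), 0 members were called in TA, in heart and for the interaction. At an unadjusted p under 0.05, 6 members were higher in D + Q–treated hearts without the trend (7.70% of all genes). With a replicate block the number was 6 (5.81%), and with sex read from expression 3 (4.98%). It was 6 to 10 with a mouse left out (5.84 to 10.5% of all genes). Members called higher in vehicle-treated TA than heart numbered 10 after median-of-ratios scaling (16.1% of all genes) and 32 without a minimum fold (5144 of the 17868 genes tested). Those called lower numbered 8 after that scaling (18.6% of all genes) and 4 to 8 with a mouse left out. Of all genes, 2225 to 2716 of the 17683 to 17790 tested were called lower with a mouse left out. In D + Q–treated mice, 12 were called higher after that scaling (16.6% of all genes). With a mouse left out, 5 to 8 were called lower, beside 1753 to 2500 of all genes tested. The causes were not tested.

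In TA, Psmb10 was 0.0006 with a pseudocount of 0.1 and 0.0463 after median-of-ratios scaling, Psmb10 and Psme2 were 0.10 and 0.0378 both with the replicate block and without a covariate, and Psmb5, Psmb6 and Psmb7 were -0.0003, -0.0607 and -0.0535 both with labelled sex and in males alone. In heart, Psmb9 was 0.0126 with the replicate block and 0.0705 with sex read from expression. The interaction was 0.0353 with the replicate block and 0.0016 without a covariate for Psmb5, and with sex read from expression -0.061 for Psmb10 and -0.0886 for Psme2. With a mouse left out, the TA estimates ranged from -0.13 to 0.30 for Psmb5, -0.12 to 0.14 for Psmb6, -0.10 to 0.14 for Psmb7, -0.11 to 0.16 for Psmb8 and -0.13 to 0.15 for Psmb10. Those in heart ranged from -0.23 to 0.0164 for Psmb8, -0.27 to 0.19 for Psmb9 and -0.15 to 0.0748 for Psme2, and those of the interaction from -0.28 to 0.0358 for Psmb5, -0.0908 to 0.31 for Psmb10 and -0.18 to 0.13 for Psme2. The TA log2 ratio differences ranged from -0.31 to 0.15 for Psmb8 to Psmb5 and from -0.10 to 0.19 for Psmb10 to Psmb7.

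Deviations of same-numbered mice correlated between -0.296 and 0.0366 in TA and between -0.0364 and 0.0310 in heart. These values gave no sign that the numbers pair the mice, but they cannot exclude a pairing. No depth is known behind these TPM values, and low genes such as Psma8 and Psmb11 cannot be given a counting error.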
